A study of Mus musculus with 2 samples.

Results

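The regions described are stretches of accessible chromatin that lie inside protein-coding genes, away from exons and far from any gene start, and that were found in both muscles studied. They were chosen as replicate 1 peaks that overlap a replicate 2 peak by at least 1 bp, lie wholly in the body of a protein-coding gene without touching an exon of any annotated gene, and have a midpoint over 10 kb from the nearest start of any gene. There were 7651 such peaks among 97499 replicate 1 peaks, of which 49760 overlapped a replicate 2 peak. They are called deep intronic peaks or members here. The rule used position and overlap and no signal, although overlap is itself more frequent among strong peaks. They covered 1.67 Mb in 7564 separate loci, since 171 of them overlapped another member. They paired with 7491 distinct replicate 2 peaks, so some members have a replicate 2 value in common.

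DNase-seq reads open chromatin from the ends of fragments that DNase I frees from nuclei. The material was whole gastrocnemius, a calf muscle of mostly fast fibres, from male B6CASTF1/J mice aged 25 days, hybrids of C57BL/6J and CAST/EiJ with no treatment named. There were 2 libraries in 1 group, biological replicates 1 and 2, whose descriptions number different males but share a donor identifier. Instrument models are named for replicate 1 only, so whether sequencing differed is not given. Whole muscle mixes fibres with satellite, connective tissue, vessel, nerve and blood cells, and a weak signal in many nuclei cannot be told apart from a strong one in few. With 1 group, no test across samples exists, and every comparison is between regions within a library or between the libraries.

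In mammals, most elements that raise transcription at a distance lie in introns and between genes. An element in an intron may act on the gene that holds it or on a neighbour, so the gene that holds a peak is only its host. In muscle, MYOD1, myogenin and their partners bind E-boxes with a CAGCTG core, MEF2 factors act beside them, and nuclear factor I (NFI) proteins take part in the passage to mature fibres. AP-1 sites serve the immediate early and growth response, and CTCF anchors chromatin loops and boundaries.

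The sequences of 8 members follow, each the 150 bases around the midpoint, on the plus strand of RefSeq's GRCm38.p6 genome, the same assembly as mm10. The first 5 are the strongest members with a long CTCF core or an NFI palindrome, or with at least 2 E-boxes, NFI half-sites or AP-1 sites, and capitals mark the match in either orientation.
Ogfrl1, chr1:23383316-23383465, intron 2, long CTCF core: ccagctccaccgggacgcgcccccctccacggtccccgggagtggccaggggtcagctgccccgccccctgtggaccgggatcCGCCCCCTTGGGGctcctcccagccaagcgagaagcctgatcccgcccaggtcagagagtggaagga
Sh3pxd2b, chr11:32357756-32357905, intron 1, pair of CAGCTG E-boxes: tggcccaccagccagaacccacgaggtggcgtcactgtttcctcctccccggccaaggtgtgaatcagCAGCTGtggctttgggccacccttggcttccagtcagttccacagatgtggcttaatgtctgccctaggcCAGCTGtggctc
Col26a1, chr5:136790946-136791095, intron 4, NFI palindrome: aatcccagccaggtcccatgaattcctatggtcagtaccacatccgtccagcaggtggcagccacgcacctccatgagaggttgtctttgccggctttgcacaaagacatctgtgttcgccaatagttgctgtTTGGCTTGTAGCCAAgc
Rabgap1l, chr1:160693176-160693325, intron 11, pair of NFI half-sites TTGGCA: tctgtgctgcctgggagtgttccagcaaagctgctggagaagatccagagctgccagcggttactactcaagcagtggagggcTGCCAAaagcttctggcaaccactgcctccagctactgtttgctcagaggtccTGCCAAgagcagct
Baiap2, chr11:119991426-119991575, intron 8, pair of AP-1 sites TGANTCA: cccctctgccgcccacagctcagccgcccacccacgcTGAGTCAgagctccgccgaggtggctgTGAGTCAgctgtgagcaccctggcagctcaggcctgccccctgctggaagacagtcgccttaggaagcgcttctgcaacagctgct
The other 3 are the strongest members in host genes described below, with capitals on any such E-box, AP-1 site, NFI half-site or long CTCF core.
Igf1r, chr7:68129136-68129285, intron 2: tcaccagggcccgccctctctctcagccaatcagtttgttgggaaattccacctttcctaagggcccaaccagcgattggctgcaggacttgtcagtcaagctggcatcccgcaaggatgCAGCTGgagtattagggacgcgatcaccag
Nfia, chr4:97868966-97869115, intron 3: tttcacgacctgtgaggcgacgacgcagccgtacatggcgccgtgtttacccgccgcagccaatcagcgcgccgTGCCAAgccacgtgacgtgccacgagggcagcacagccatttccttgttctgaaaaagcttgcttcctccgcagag
Lsp1, chr7:142484906-142485055, intron 7: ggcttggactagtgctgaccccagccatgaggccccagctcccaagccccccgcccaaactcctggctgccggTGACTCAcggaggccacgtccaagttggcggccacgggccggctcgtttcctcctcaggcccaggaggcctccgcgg

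Of the 5 motif examples, the Ogfrl1 peak had signals of 9.78 and 6.68 in replicates 1 and 2, the Sh3pxd2b peak 6.54 and 5.50, and the Rabgap1l peak 5.01 and 4.57. The Baiap2 peak had 3.42 and 3.63, and the Col26a1 peak 2.41 and 3.70. The capitals mark only the motif named, and the windows hold others. On the other strand the Baiap2 window also holds CAGGGGG and the Col26a1 window GCCACCTG, both parts of CTCF forms described below. The signal is the authors' own value per peak. Every signal was a whole multiple of 1 step per library, as tags in a window scaled to library size would be, and on that reading replicate 1 held 169 M tags and replicate 2 held 117 M. The median member then rested on 169 tags in replicate 1 and 107 in replicate 2, and the lowest on 16 and 14.

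Most deep intronic peaks of replicate 1 were not found in replicate 2, while most of those of replicate 2 were found in replicate 1. Of 20741 replicate 1 peaks in such places, 36.9% were shared (Wilson 95% interval 36.2 to 37.5%). Of 9555 replicate 2 peaks, 79.7% were shared (78.8 to 80.4%). For intronic peaks 1 to 10 kb from a start, called near-start peaks, the shares were 43.6% and 74.7%, for intergenic peaks over 10 kb from any start 38.8% and 72.9%, and for peaks within 1 kb of a gene start, called promoter peaks, 77.3% and 87.4%. Intervals cover counting error only.

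Sharing followed signal closely. Of deep intronic peaks in replicate 1, 8.08% were shared at a signal under 0.25, 49.8% at 0.75 to 1, 91.4% at 1.5 to 2 and 99.4% (310 of 312) over 3. In the class of 0.75 to 1 the share was 49.3% for near-start, 60.8% for intergenic and 73.5% for promoter peaks. Intervals of deep and near-start peaks overlapped in that class (47.9 to 51.6% and 46.8 to 51.9%). Those of deep and intergenic peaks did not (intergenic 58.6 to 62.9%). In replicate 2 the order of the classes was different, and in its class of 0.5 to 0.75 the share was 83.3% for deep intronic, 70.5% for near-start, 84.6% for intergenic and 67.3% for promoter peaks. The 13090 unshared replicate 1 peaks had a median signal of 0.473, and 6.17% of them held a position that the deposited false discovery rates list for replicate 2.

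**Figure D1:**
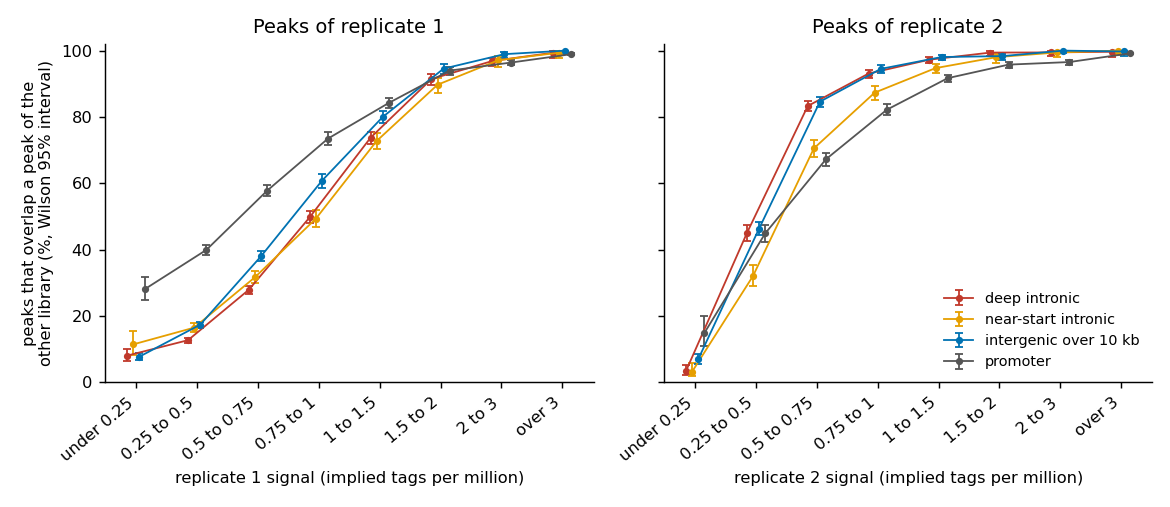
Percent of peaks that overlap a peak of the other library (vertical axis, Wilson 95% intervals as bars) in 8 classes of the authors' signal (horizontal axis), for replicate 1 on the left and replicate 2 on the right, with a line for each class of place. The share of deep intronic peaks in replicate 1 climbs from 8.08% under 0.25 to 99.4% over 3.

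Deep intronic peaks were of moderate strength and as wide as intergenic ones. The median signals of the libraries, 1.00 and 0.914, averaged 0.957 ± 0.0603 (SD, n = 2), with quartiles of 0.657 to 1.54 and 0.658 to 1.36. That was 0.901 ± 0.0537 times the median of shared near-start peaks, 1.08 ± 0.00179 times that of shared intergenic peaks and 0.423 ± 0.0357 times that of shared promoter peaks (SD, n = 2). Median widths in replicates 1 and 2 were 200 and 180 bp for members and for shared intergenic peaks. They were 200 and 200 bp for shared near-start and 240 and 280 bp for shared promoter peaks. Of the members, 85.9% overlapped a peak of the stricter list of replicate 1 and 47.5% one of the stricter list of replicate 2.

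For most members the signals of the libraries were alike in size. The log2 ratio of replicate 1 over replicate 2, centred on all shared peaks, had a median of 0.08 and an SD of 0.52 across members. Beyond 2-fold lay 5.53% of members, against 5.52% of all 49760 shared peaks, so the share of members is near the background. Higher in replicate 1 were 296 members, 3.87% against 2.48% of all shared peaks, and higher in replicate 2 were 127, 1.66% against 3.04%.

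**Figure D2:**
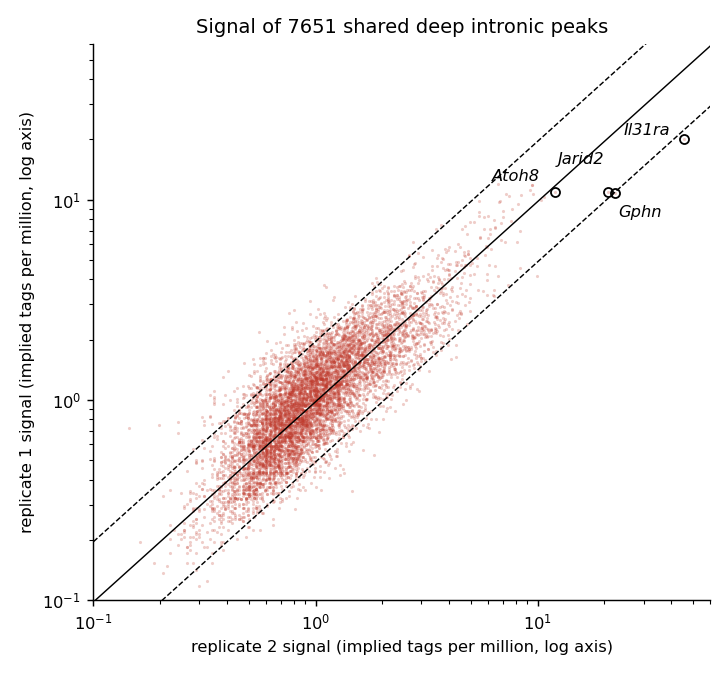
Each point is 1 of 7651 members, with its replicate 2 signal on the horizontal and its replicate 1 signal on the vertical axis, both log axes; the solid line is the median ratio of all shared peaks and the dashed lines are 2-fold to either side. Of the 4 members circled and named, Il31ra and Jarid2 lie beyond the lower dashed line and Gphn just inside it.

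The 10 strongest members stood in 9 host genes, and 5 of the 10 have near copies elsewhere in the genome. The strongest lies in intron 3 of Il31ra, a cytokine receptor gene, at chr13:112578161-112578320, with signals of 20.2 and 45.7 in replicates 1 and 2. Next are members in Jarid2, a partner of Polycomb complex 2, with 10.8 and 22.4, and in Gphn, the gene of the scaffold protein gephyrin, with 10.97 and 20.7. Searched against the genome, these 3 peaks matched 17, 14 and 6 other chromosomal places at 90% identity or more over at least 50 bp. A neighbouring pair in intron 17 of Mid1 on the X chromosome (11.9 in replicate 1 for each, with 1 replicate 2 value in common, 9.48) matched 8 and 9 others. Reads at such places could come from any copy, and this was not tested.

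The strongest member with no such copy lies in intron 3 of Atoh8, a basic helix-loop-helix factor gene, at chr6:72216741-72216940, with 10.9 and 11.95. A member of Foxn3, a forkhead gene, had 10.3 and 10.7. A member of Kat6b, a histone acetyltransferase gene, had 11.3 and 9.27. A member of the cation channel gene Trpm3, 145 kb from the nearest start of any gene, had 10.7 and 9.54. These 4 lay within 2-fold between the libraries. None of the other 15 among the 25 strongest matched another chromosomal place. Of these, the member in Ppp2r3d had 1 match on another scaffold of the assembly, at 100% identity.

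Density and median signal were lower farther from gene starts. Counted against the intronic sequence that could have held a member, 669 Mb in all, members numbered 11.4 per Mb. At 10 to 20 kb from the nearest start there were 14.1 per Mb with median signals of 1.11 and 1.02, at 20 to 50 kb 12.7 per Mb with 1.02 and 0.931, and at 50 to 100 kb 10.2 per Mb with 0.929 and 0.863. At 100 to 200 kb there were 6.75 per Mb with 0.763 and 0.696, and beyond 200 kb 4.06 per Mb with 0.689 and 0.684 (116 members). The median member lay 29.3 kb from the nearest start of any gene, 65.1 kb from the start of its host and 3.94 kb from the nearest exon of its host. At the 10 kb limit, the 5 members just inside lay 10002 to 10011 bp from a start with replicate 1 signals of 1.01 to 7.75, and the 5 shared intronic peaks just outside lay 9994 to 9998 bp away with 0.574 to 1.72.

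**Figure D3:**
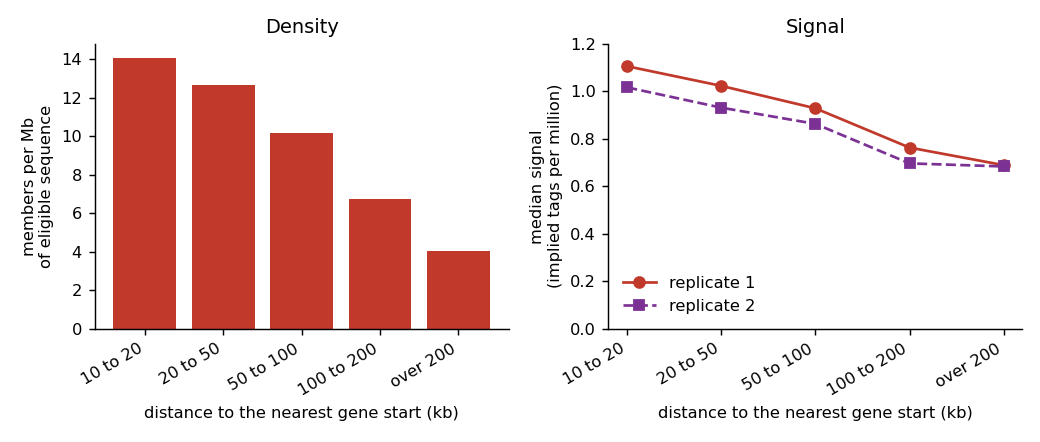
Members per Mb of intronic sequence that could have held one (left, bars) and their median signal in replicates 1 and 2 (right, lines), both against distance to the nearest gene start in kb. Density goes down in every step, 14.1 per Mb at 10 to 20 kb and 4.06 beyond 200 kb.

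Density differed less between introns. Intron 1 held 13.3% of members, intron 2 12.1%, intron 3 11.5% and later introns 63.1%. Counted once for each host, they numbered 12.3, 12.6, 12.9 and 10.98 per Mb in these introns. The nearest gene start was that of a host for 31.4% of members, of another protein-coding gene for 14.1% and of a gene that codes for no protein for 54.6%. Many genes have further starts inside, and 7.37% of members (564) lay within 1 kb of the 5′ end of some annotated transcript. These 564 had a median GC content of 58%, against 54% for the 5044 members over 10 kb from any transcript start. A GGGCGG box stood in 21.5% of them, against 8.05%.

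The X chromosome, of which males carry 1, held 144 members, 4.54 per Mb of eligible sequence against 11.8 per Mb on the autosomes. Their median signal was 0.622 ± 0.0278 times that of autosomal members (SD, n = 2). Of the 144, 16 lie in Bcor, the BCL6 corepressor gene. Among autosomes chromosome 11 had the most, 17.0 per Mb, and chromosome 3 the fewest, 7.97, and the Y chromosome had 0.

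The members stood in 3276 of the 11757 protein-coding genes that have eligible sequence, or 27.9%. Of these hosts, 1664 held 1 member, 400 held 5 or more and 72 held 10 or more. The highest counts came with long gene models. Gm20388 held 108 members in a model of 4.43 Mb that spans 71 other coding genes, and 58 of its members also lie in another host. The annotated model of the growth factor receptor gene Fgfr2, 2.96 Mb long with 29 coding genes inside, held 39, of which 25 lie in another host too. Next came Gse1 with 31, the nuclear receptor gene Rora with 23, the focal adhesion gene Tns1 with 21, and 19 each in the calmodulin-binding activator Camta1 and the translation factor Ctif. Rbms3 and the model Gm37240 held 17 each. The homeobox gene Zfhx3 held 16, as did Prkca, Bcor and Msi2.

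Per 100 kb of eligible sequence, the densest host with 5 or more members was Lsp1, with 83.4, where all eligible sequence held 11.4 per Mb. Sfi1 followed with 41.3, the stress factor Atf3 with 39.3, Mxra7 with 38.7, the biotinidase gene Btd with 33.2 and Nfic with 31.6. Then came Plec, the gene of the cytoskeletal linker plectin, with 28.7, Creb3l1 with 25.5, the focal adhesion gene Pxn with 24.8 and the adenosine receptor gene Adora3 with 24.5. Of the 9 members in Sfi1, 3 match other places in the genome, as do 1 of 12 in Lsp1 and 1 of 6 in Nfic, and 0 in the other 7 hosts.

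Lsp1 codes for an actin-binding protein known from leukocytes, and lies at chr7:142460809-142494867 between genes of fast-fibre troponins, 16.4 kb from Tnni2 and 3.97 kb from Tnnt3. Its 12 members lie 10.2 to 24.2 kb from its start. Their signals ran from 0.177 to 2.98 in replicate 1, with a median of 0.441, and from 0.385 to 2.34 in replicate 2, with a median of 0.884. The members fell into stretches. The first, at 10.2 kb, had 1.76 in replicate 1 and 1.35 in replicate 2 with 7 and 6 footprints, and the last 4, at 20.6 to 24.2 kb, had 1.147 to 2.98 and 1.11 to 2.34 with 1 to 7 and 2 to 9 footprints. All 7 members between them were higher in replicate 2 and held 0 footprints in either library, but 3 of these are nested calls with 1 shared replicate 2 value, 0.385, and the density counts each. One of those 7, at 15.9 kb, had 0.349 in replicate 1 and 1.46 in replicate 2, the largest difference toward replicate 2 among members. The promoter peak of Lsp1 itself was weak, with 0.485 and 0.538. Of 16 genes for fast-fibre sarcomere proteins 10 had eligible sequence and held 0 members, against 0.770 at the rate explained next.

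Lists of muscle genes and of other cell types were read against the number of members at the rate of genes in the same class of eligible length. There were 6 such classes, and the highest, over 200 kb, has no upper limit. Myogenic transcription factors held 81 members against 29.96 at that rate, in 18 of 23 genes with eligible sequence. Of these, 47 lie in the 4 NFI genes, against 5.97, and the other 19 genes held 34 against 24.0. Growth and atrophy signalling held 62 against 32.1, in 21 of 26 genes. Pan-fibre sarcomere genes held 24 against 18.2 and genes of excitation-contraction coupling 24 against 19.6. The dystrophin complex and costamere held 66 against 67.6. The median gene with eligible sequence held 0 members and the medians of these lists were 1, 2, 0.5, 0.5 and 1. No list was tested, and lists share 8 genes.

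Lists of the other cells of muscle lay on either side. Fibro-adipogenic progenitor genes held 17 members against 10.3, satellite cell genes 13 against 8.78, endothelial genes 27 against 20.02, and smooth muscle and pericyte genes 14 against 7.57. Macrophage and leukocyte genes held 7 against 11.3, neuromuscular junction genes 10 against 18.7 and Schwann cell genes 4 against 10.6. Of the lists for cells whose nuclei muscle lacks, neuronal genes held 63 against 178 and hepatocyte genes 1 against 3.72. The 20 neuronal genes hold 22.8 Mb of eligible sequence, and the open class over 200 kb does not match genes of such length. Nrg1 of the neuromuscular list, with 1010 kb, and Cadm2 of the Schwann cell list, with 883 kb, fall in that class too. The part of length in these shortfalls was not tested. Of the remaining lists, slow and cardiac sarcomere genes held 4 against 2.36, glycogen and glycolysis 11 against 9.34, oxidative metabolism 19 against 17.3 and tendon and myotendinous junction 6 against 5.95.

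**Figure D4:**
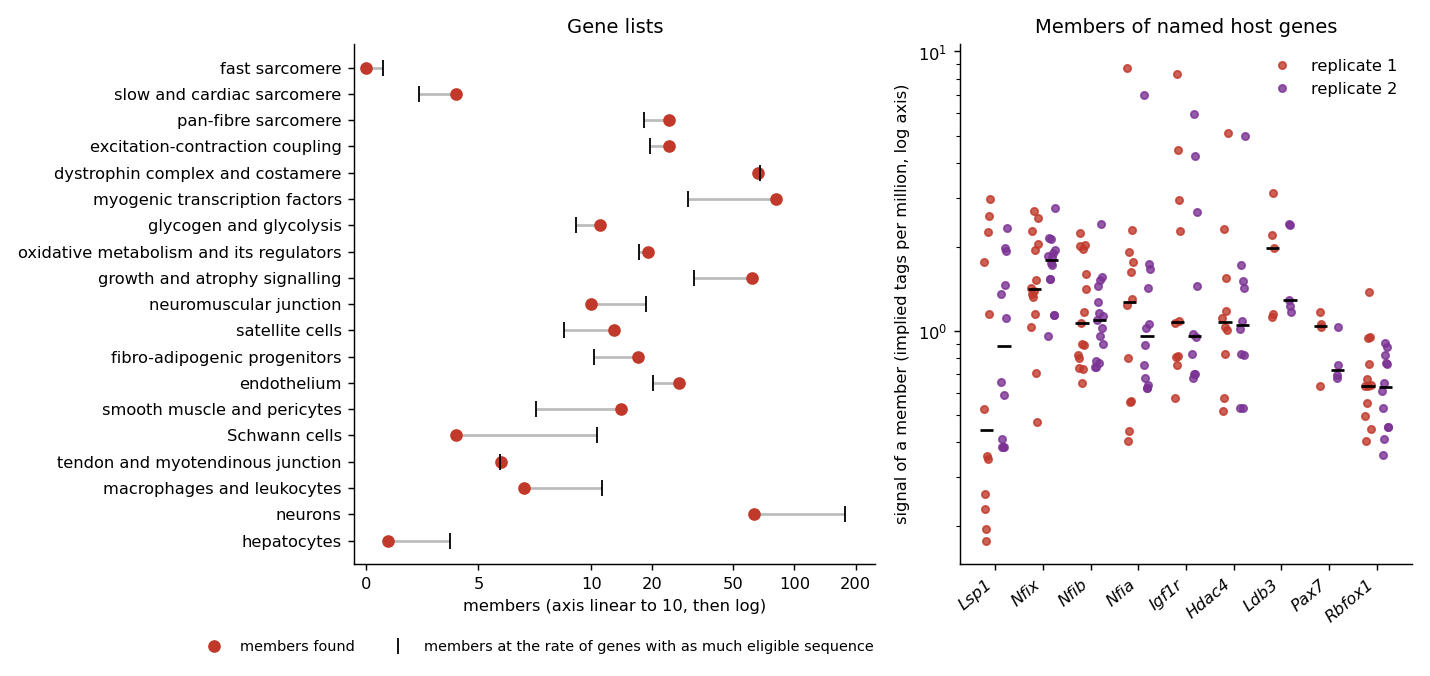
Left, members in each of 19 gene lists (red points) beside the number at the rate of genes in the same class of eligible length (black ticks), on an axis that is linear to 10 and logarithmic above. Right, the signal of every member of 9 host genes in replicate 1 (red, left of each pair) and replicate 2 (purple) on a log axis, with black bars at the medians. Myogenic transcription factors stand at 81 against 29.96 and neuronal genes at 63 against 178.

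Among myogenic factors, Nfib held 15 members, Nfix 14 and Nfia 12, the 3 most of the list, all of them NFI genes. Members of Nfib had signals of 0.651 to 2.24 in replicate 1 and 0.743 to 2.41 in replicate 2, with medians of 1.07 and 1.09. Of the 15, 5 lay beyond 2-fold between the libraries, 3 higher in replicate 1 and 2 in replicate 2, where 5.52% of all shared peaks did. All 5 lay just past 2-fold, with log2 ratios of 1.01 to 1.06 and of -1.03 and -1.02. Nfix had 24.4 members per 100 kb, with medians of 1.41 and 1.79 and a range of 0.473 to 2.68 and 0.957 to 2.75. Overlapping Nfix calls near 57.9 kb from the gene start have 1 replicate 2 value in common, 1.54. So do those at 14.9 and 15.2 kb, with 1.14, and the density counts each call. Of the Nfia members, the one at 96.3 kb from the gene start, printed above, had 8.75 and 6.96, and the other 11 had 0.402 to 2.29 and 0.624 to 1.73. The Nfia members thus held 1 far above the other 11 in both libraries.

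In the growth and atrophy list, Igf1r, the receptor for insulin-like growth factor 1, and Hdac4, a deacetylase that represses MEF2, held 10 members each and the calcium-responsive factor Nfatc1 6. The Igf1r members at 176 kb and 177 kb, both in intron 2, had 8.29 and 4.43 in replicate 1 and 5.98 and 4.23 in replicate 2, with a weaker one (0.810 and 0.701) between them. The other 7 had 0.574 to 2.95 and 0.675 to 2.67. The strongest Hdac4 member, 14.8 kb from its start, had 5.12 and 4.96, and the other 9 had 0.515 to 2.31 and 0.530 to 1.73. In Hdac4, 17 deep intronic peaks were called in replicate 1 and 45 in replicate 2.

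Members also stood in marker genes of several cell types. Ldb3, a Z-disc gene, held 5 with medians of 1.98 and 1.29, Bin1, which shapes the transverse tubules, 7 with 1.04 and 0.906, and Synpo2 6. Of the Bin1 members 2 lay beyond 2-fold. One of these, with 0.722 in replicate 1 and 0.145 in replicate 2, had the largest difference toward replicate 1 among members. Utrn, the dystrophin relative, held 10 with 0.4998 and 0.628, and Dmd itself, on the X chromosome, 2 at 0.154 and 0.420 in replicate 1 and 0.282 and 0.487 in replicate 2. Ttn held 1 with 1.18 and 0.632. Dmd and Ttn were chosen after their values were seen. Of genes with eligible sequence, a member stood in 11 of 22 pan-fibre sarcomere and 7 of 14 excitation-contraction coupling genes. In the dystrophin complex and costamere list it was 21 of 26. Neb, Ryr1, Cacna1s and Trdn were among those with 0. Pax7, the satellite cell factor, held 4 with 1.04 and 0.722. Of 15 satellite cell genes 7 held a member, and Pax3 and Notch3 were among those with 0. The endothelial gene Pecam1 held 6 with 1.67 and 1.85. Of 14 endothelial genes with eligible sequence 7 held a member, and Cdh5, Kdr, Tie1, Emcn, Ptprb, Eng and Erg held 0. Spi1, the myeloid factor, held 1 with 3.904 and 3.68, where its promoter peak had 1.04 and 1.09. Of 12 macrophage and leukocyte genes 6 held a member, and Ptprc, Csf1r, Adgre1, Itgam, Cd163 and Ikzf1 held 0. Among neuronal genes, the splicing regulators Rbfox3 and Rbfox1 held 12 each, but Rbfox1 did so in 1492 kb of eligible sequence with medians of 0.636 and 0.628.

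A promoter peak stood at 80.2% of hosts in replicate 1 and 78.7% in replicate 2, against 69.9% and 67.8% of the 8481 genes with eligible sequence and no member. Hosts had the higher share in each of the 6 classes of eligible length, but the intervals overlapped up to 5 kb (hosts 65.0 to 84.5% and other genes 66.2 to 70.2% in replicate 1) and, in replicate 1, over 200 kb (74.4 to 81.3% and 63.3 to 76.5%). Promoter signal did not go one way. Its median was 2.75 and 2.73 in hosts, against 3.88 and 3.61 in the other genes. Within length classes hosts were lower at 5 to 100 kb and higher up to 5 kb and above 100 kb, with 1.72 and 1.73 over 200 kb, against 0.597 and 0.778.

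The sequence of members was richer in GC than their surroundings. The median GC content of the central 150 bp was 54.7%, against 47.0% in windows of that length 1 kb to either side of the same peaks. Near-start peaks had 56.7%, intergenic peaks 54.0% and promoter peaks 65.3%. Members held 3.25 CpG pairs on average, against 12.5 in promoter peaks, and 64.7% of them held no soft-masked repeat base.

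The 31 consensus motifs were searched on both strands of these windows. A match means that the letters are present and not that a factor binds. By ratio to the flanks, the 5 highest were the NFI palindrome, the long CTCF core, a YY1 site, the CRE site TGACGTCA of CREB and ATF factors, and a short CTCF core. The places of the NFI palindrome, with a flank count of 0, and of YY1 rest on few matches. The ratio of the long CTCF core also rests on few flank matches. The SD of a motif ratio is over 2 libraries that read the same genome at mostly the same places, and does not measure sampling error. The NFI palindrome, a pair of facing TTGGC boxes, was in 12 members of replicate 1 and 9 of replicate 2 and in 0 of 15302 and 15222 flanks, at least 8-fold and at least 6-fold higher with 3 counts as the floor. The long CTCF core, CC and AGGGGGCG with 3 bases between, was in 1.99% and 1.96% of members, against 0.0261% and 0.0263% of flanks, a ratio of 75.3 ± 1.06 (SD, n = 2) and 34.7 against flanks of like GC content. The long core was 1.08 and 1.01 times as frequent as in near-start peaks of replicates 1 and 2, and 0.779 and 0.756 times as in intergenic peaks. The YY1 letters were in 3 members of each library, against 1 flank, 0.0392% (0.0133 to 0.115%) and 0.00654% (0.00115 to 0.0370%) in replicate 1, and these intervals overlap. The CRE was in 0.379% and 0.289%, against 0.0915% and 0.0854%, and the short CTCF form CAGGGGG, which can overlap the long core, in 7.33% and 7.33% of members, against 2.10% and 2.14%. The short form's ratio was 3.46 ± 0.0509, and 1.95 at like GC content, below the NFI half-site (2.22) and AP-1 (2.16).

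The lowest 3 were HNF1, POU and GATA. The HNF1 palindrome of liver and kidney was in 0 members, which allows a share of up to 0.0392% in replicate 1, against 2 flanks. The POU octamer ATGCAAAT was in 0.274% and 0.315%, against 0.680% and 0.749% of flanks, and the GATA core AGATAA in 3.22% and 3.34%, against 7.59% and 7.32%. These are rich in A and T. Against flanks reweighted to the members' GC content, the ratio was 0.876 for POU and 0.894 for GATA, in place of 0.412 and 0.440.

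Motifs of muscle regulators, given here with AP-1 and the GC box and named after their values were seen, differed from each other. The myogenic E-box CAGCTG was in 22.8% and 21.7% of members, against 7.89% and 7.57% of flanks, a ratio of 2.87 ± 0.0131 (SD, n = 2), and 1.83 against flanks of like GC content. In the same windows it was 1.19 times as frequent as in near-start peaks, 1.04 times as in intergenic peaks and 2.22 times as in promoter peaks of replicate 1. The NFI half-site TTGGCA was in 17.9% and 16.9%, against 7.91% and 7.86%, a ratio of 2.21 ± 0.0841, and 2.22 at like GC content. The AP-1 site TGANTCA was in 7.80% and 7.13%, against 4.02% and 4.12%, 1.84 ± 0.148 and 2.16 at like GC content. The GC box GGGCGG had a ratio of 2.91 ± 0.0596, and 1.21 at like GC content. A loose MEF2 pattern, CTA and TAG with any 4 bases between, was in 1.99% and 1.75%, against 2.25% and 2.28%, a ratio of 0.824 ± 0.0810 (SD, n = 2). Stricter MEF2 forms were not searched, so whether those are more frequent in members is not known. At like GC content the ratio of the loose pattern was 1.23 in replicate 1 and 0.976 in replicate 2.

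**Figure D5:**
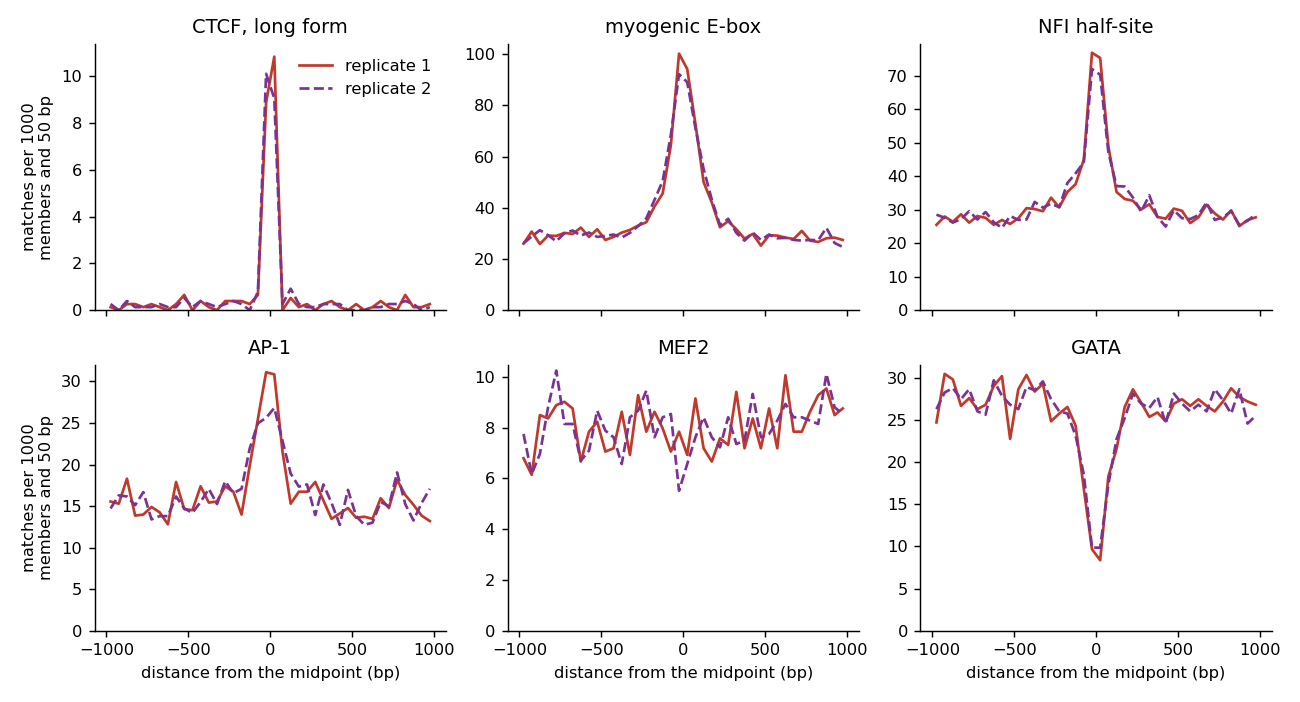
Matches per 1000 members in 50 bp steps (vertical axes, from 0) against distance from the peak midpoint in bp, for 6 motifs, with replicate 1 as solid red and replicate 2 as dashed purple lines. CTCF, E-box, NFI and AP-1 letters gather within 100 bp of the midpoint, GATA letters are sparse there, and letters of the loose MEF2 pattern show no peak in either library.

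The matches lay near the midpoint. In the central 100 bp there were 97.2 and 90.7 CAGCTG matches per 1000 members and 50 bp, against 28.8 and 28.5 beyond 500 bp. NFI half-sites had 76.1 and 71.1 against 27.4 and 27.7, AP-1 sites 31.0 and 26.2 against 15.0 and 15.0, and long CTCF cores 9.87 and 9.59 against 0.209 and 0.184. Matches of the loose MEF2 pattern had 7.38 and 6.04 against 8.28 and 8.22.

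Footprints are short stretches protected from cutting that the authors list per library. Those of replicate 1 overlapped 94.0% of members (Wilson 95% interval 93.4 to 94.5%). Those of replicate 2 overlapped 85.3% of the replicate 2 peaks paired with members (84.5 to 86.1%). Near-start peaks had 89.9% and 84.7%, intergenic peaks 92.5% and 83.8%, and promoter peaks 89.1% and 89.9%. Inside the replicate 1 peaks themselves, a footprint of each library stood in 81.2% of members and none of either in 2.91%. Counted there too, in 4 equal classes of mean signal, the share went from 82.4% to 99.7% for replicate 1 footprints and from 62.7% to 98.8% for replicate 2 footprints.

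Motifs differed in how often they lay in a footprint, counted where at least 50% of the match was covered. Matches of the long CTCF core were covered in 91.5% (replicate 1) and 90% (replicate 2), against 21.1% and 15.3% of all placements of a string of its length. NFI half-sites were covered in 49.2% and 29.8%, CAGCTG in 28.3% and 22.8% and GGGCGG in 44.7% and 31.8%, against 21.6% and 15.7% of placements of 6 bases. AP-1 sites were covered less than placements of 7 bases, 11.9% and 8.66% against 20.3% and 14.8%, and the forkhead core TGTTTAC in 3.39% and 2.40%. The E-box CACCTG was covered in 40.8% and 33.5%. In the replicate 1 windows, the 349 matches of GCCACCTG, part of a form of the CTCF core, were covered in 71.9% and 64.2%. The 680 CACCTG matches in members without GCCACCTG were covered in 25.9% and 20.4%.

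Motifs also went with signal and with the difference between the libraries. Members with the long CTCF core had median signals of 1.21 and 1.45, against 1.00 and 0.906 for those without, and their log2 ratio, replicate 1 over 2, had a median of -0.32. Those with an AP-1 site had 1.06 and 0.880, against 0.994 and 0.914 without, and a log2 ratio of 0.24. Those with an NFI half-site had 1.01 and 0.863, against 1.00 and 0.931 without, and a log2 ratio of 0.19. For both motifs the signal was thus higher with the motif in replicate 1 and lower in replicate 2. Of the 296 members over 2-fold higher in replicate 1, 12.5% held an AP-1 site, 24.3% an NFI half-site, 27.7% CAGCTG and 3.38% CAGGGGG. Of the 127 over 2-fold higher in replicate 2, the shares were 2.36%, 7.87%, 11.8% and 10.2%, which rest on 3, 10, 15 and 13 members. Of the 7228 within 2-fold they were 7.71%, 17.9%, 22.8% and 7.44%. Long CTCF cores were in 0.993% of the weakest and 3.71% of the strongest class of members, and GGGCGG in 7.005% and 13.2%, while CAGCTG stayed between 21.7% and 23.7% in all 4.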

How the data were processed

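DNase-seq of 2 libraries was read from the deposited peak lists, footprints and per-position false discovery rates on mm10, per the labels. The signal of a peak and its footprints are the authors' own. The deposited q-values are listed only below 0.05, and the footprint files' other column is constant and was not used as a score. Per the README notes deposited with the files, each list derives from its own library's alignments. Which aligner, peak caller and footprint caller made them is not given in these sources. The longer list of each library was used, with midpoints as centres. Places came from GENCODE release M21 and sequences from RefSeq GRCm38.p6. Overlap, place and motif counting was checked on simulated intervals and sequences. The log2 ratio between libraries was centred on all shared pairs. Shares have Wilson 95% intervals, and no test was run. Members, lists and motifs were chosen with earlier results of these data known. Named are the 10 hosts with most members and the 10 densest with 5 or more, the 3 genes of each list with most members, ties by signal (not all are described), the 10 strongest members (1 is not reported here), and the 5 highest and 3 lowest motifs. Alternatives were other peak lists, overlaps, distances, starts, exons, base library and windows. Analyses used Python 3.11.15, pandas 2.3.3, SciPy 1.17.1 and pysam 0.24.0.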

Additional observations from a re-analysis of the deposited data

How the results depend on the processing

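The ratio of members to near-start peaks in median signal moved by no more than its SD under the 9 alternatives tried. With the stricter peak lists there were 3490 members in 2078 hosts, 30.7% of deep intronic replicate 1 peaks were shared, and the median signal was 1.42, the share beyond 2-fold 4.13%, the share with a footprint 96.5% and the median GC content 55.7%. With at least 50% of the peak covered, 29.5% were shared, with a median signal of 1.06 and GC of 55.0%. GC was 55.0% over 5 kb from a start, and the share 35.8% over 20 kb. The starts of all transcripts gave 5044 members, 35.3% shared, with GC of 54.3%. With replicate 2 peaks as members, 79.7% were shared and 4.99% lay beyond 2-fold. Taking 1 library alone gave 9555 and 20741 peaks in 3616 and 5179 hosts, with a median signal of 0.586 to 0.786, a ratio to near-start peaks of 0.892 to 0.920, footprints in 75.7 to 82.5% and GC of 52.7 to 54.7%. Chosen after seeing the data, leaving out gene models over 2 Mb gave 7572 members, and reweighting flanks to the members' GC reversed the ratio of the E-box CACCTG (0.812 in place of 1.18) and the mean ratio of MEF2 (1.10 in place of 0.824, with 1.23 in replicate 1 but 0.976 in replicate 2). The other 10 of 12 motif ratios recomputed kept their side of 1. No paired analysis was possible because there is 1 group. The libraries differ in implied depth, and its part in which weak peaks were shared was not tested.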

Other observations

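Some genes held runs of weak deep intronic peaks that only replicate 2 had. Of all deep intronic peaks, replicate 1 had 20741 and replicate 2 had 9555. More of them were called in replicate 1 in 4076 genes and in replicate 2 in 346 genes, 33 of which had at least 5 more. In Hdac4, 35 unshared replicate 2 peaks with signals of 0.111 to 0.419 lay within 52.8 kb, where replicate 1 had 5. The signal regulatory gene Sirpa held 22 within 11.5 kb with a median of 0.201, Pdzk1, a scaffold gene, 17 within 15.2 kb with 0.154, Bean1 16 within 8.47 kb with 0.145, and the calcium channel gene Cacna1b 12 within 10.5 kb with 0.137. In each of these 4 spans replicate 1 had 0 deep intronic peaks, and none of the 4 genes held a member. Itgb5, an integrin gene, held 8 members and 12 unshared replicate 2 peaks.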
